A study of Mus musculus with 8 samples.

Results

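The RNA levels of 10 mouse genes of natural killer (NK) cells were examined in Pax5-deficient B cell precursors: 6 receptor genes and 4 genes of cytotoxic granules. The members were all non-control probes of the array whose gene name is Klrd1, Klrk1, Klrb1c, Klrc1, Ncr1, Il2rb, Gzma, Gzmb, Prf1 or Nkg7. That gave 13 probes of the 41174 on the array, and 10 genes of 21329 named ones. Of these 10 genes, 6 were tested, which required a signal well above background for 1 RNA on both arrays of a comparison. Klrc1, Ncr1, Gzmb and Prf1 were not.

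The cells were pro/preB cells from the bone marrow of Pax5-/- mice, kept with IL-7 on a feeder layer of gamma-irradiated OP9 stromal cells. Clone 4, a single clone, carried the doxycycline-dependent transactivator rtTA with histidinol resistance and a human Pax5 transgene (huPax5) under the rtTA-dependent TRE promoter with puromycin selection. It was given doxycycline at 10, 300 or 1000 ng/ml. Pax5sz2 cells were transduced with rtTA alone, and their label says doxycycline without a dose. Each of these 4 RNAs, called the named RNA here, was hybridised against RNA labelled as clone 4 with huPax5 and without doxycycline (0 ng/ml), on 2 two-colour arrays with the dyes swapped. Array 1 held the named RNA in Cy5 and array 2 in Cy3. The cells are Pax5-/- and the transgene is human. What the 2 probes assigned to mouse Pax5 detect in these cells was not tested, so they do not check the labels. Their log2 ratios were 2.66 and -0.11 at 10 ng/ml, 2.36 and 0.23 at 300 ng/ml, 0.11 and -0.45 at 1000 ng/ml, and 3.02 and -0.27 in Pax5sz2.

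Natural killer cells are innate lymphocytes that kill infected or transformed cells when signals of activating receptors outweigh those of inhibitory receptors. CD94 (Klrd1) pairs with NKG2 proteins such as NKG2A (Klrc1), NKG2D (Klrk1) signals through the adaptors DAP10 (Hcst) and DAP12 (Tyrobp), and IL-2 and IL-15 act through the shared beta chain Il2rb. Killing itself uses perforin (Prf1), which opens the target membrane, and granzymes (Gzma, Gzmb), proteases released from the same granules. Pax5 commits progenitors to the B lineage, and progenitors without it are known to keep the capacity to form other blood lineages, NK cells among them.

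Each comparison rested on 1 pair of RNAs measured on 2 technical arrays, so a single comparison has no p-value, and ± stands for the SD between the 2 arrays. A gene was past the size when it was at least 2-fold higher or lower (a log2 ratio of 1 or more in size) in the same direction on both arrays. In Pax5sz2 the lack of huPax5, the doxycycline and the difference in cells cannot be told apart. In these bulk RNAs, fewer cells of a type and less RNA per cell cannot be told apart. Which way the 1000 ng/ml pair runs was not settled. Its ratios over all probes ran against those at 300 ng/ml (r = -0.359 on the Cy5 arrays and -0.46 on the Cy3 arrays, across probes, which are not independent replicates). The deposited names mark its slides as rehybridised, and they were scanned earlier with another protocol, so that dose cannot be told apart from its batch. Its values are given as labelled, and with the sign turned each of them changes sides. On the 1000 ng/ml arrays 40.4% to 45.1% of spots per channel were well above background, called with a multiplier of 2.6, and on the others 59.5% to 75.5%, called with a multiplier of 13. Precision is limited by the number of arrays. With 2 arrays per RNA, levels can lie apart without overlap through variation between arrays alone. The share of all features that do so was not counted.

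The labelled cell type was set against its markers. Of 12 B lineage markers, all detected in at least 1 comparison, 10 were well above background on both arrays in both the named RNA and the control RNA at 10 and at 300 ng/ml. Vpreb1 and Igll1, which encode the surrogate light chain of early B cells, were the exceptions. Of the tested markers of other cells, 8 of 9 for T cells and 7 of 7 for myeloid cells were also well above background at 10 ng/ml, counted in each RNA. At 300 ng/ml these were 7 of 9 and 6 of 7. Such counts therefore do not single out the B lineage. Vpreb1 was well above background on 0 of 2 control arrays at 10 ng/ml and 0 of 2 at 300 ng/ml. On the Pax5sz2 arrays it was at a mean normalized log2 level of 17.81 in Pax5sz2 RNA and 9.93 in the control RNA, against 6.10 and 6.08 for the control RNA at 10 and 300 ng/ml. The level read for the RNA labelled as the same control thus differed between arrays, and this applies to Klrd1 below as well. Whether the RNA itself differed was not tested. For Klrd1 the raw control signal on array 1 was 55 with Pax5sz2 and 55.7 with 10 ng/ml. On array 2 it was 125 and 98.7.

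Of the 13 probes, 6 lie on chromosome 6 in the NK gene complex, a cluster of lectin-like receptor genes. Positions are those of the file headers (mouse build mm8). No annotation of that build was used here, so exons and introns are not given. The Klrd1 probe lies at chr6:129564066-129564125 on the plus strand, and the Klrk1 probes at chr6:129578157-129578446 and chr6:129577539-129577598 on the minus strand. The Klrb1c probes lie at chr6:128744204-128744263 and chr6:128750371-128750430, and the Klrc1 probe at chr6:129641066-129642871, all on the minus strand. Outside that complex are Nkg7 (chr7:43306032-43306091 and chr7:43305698-43305757) and Ncr1 (chr7:3947661-3947720) on the plus strand of chromosome 7. Gzma lies at chr13:114216656-114216715, Gzmb at chr14:55213150-55213209 and Il2rb at chr15:78307934-78307993, all on the minus strand, and Prf1 at chr10:60699137-60699196 on the plus strand. Probe sequences were not used here, so binding of a probe to related family members was not tested.

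Promoters of 8 of the 10 genes were found in RefSeq's table for build GRCm38.p6, from 250 bases before to 50 bases after the start site. Klrd1 and Il2rb had no entry. Shown are those of 2 genes past the size in Pax5sz2 (Nkg7 and Gzma), of Klrb1c, and of Gzmb, which was near background throughout. Capitals mark matches on either strand to the letters TGTGGT (the core bound by Runx factors), GGTGTGA (T-box factors), GAGGAAG (PU.1-type Ets factors) and CAGGTG (an E-box).
Nkg7 (chr7:43436888-43437187, plus strand): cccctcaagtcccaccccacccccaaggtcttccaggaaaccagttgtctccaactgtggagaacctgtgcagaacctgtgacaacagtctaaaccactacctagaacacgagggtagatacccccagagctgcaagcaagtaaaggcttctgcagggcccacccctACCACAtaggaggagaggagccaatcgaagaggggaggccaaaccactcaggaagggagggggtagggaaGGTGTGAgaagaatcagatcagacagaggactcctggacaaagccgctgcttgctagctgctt
Gzma (chr13:113100932-113101231, minus strand): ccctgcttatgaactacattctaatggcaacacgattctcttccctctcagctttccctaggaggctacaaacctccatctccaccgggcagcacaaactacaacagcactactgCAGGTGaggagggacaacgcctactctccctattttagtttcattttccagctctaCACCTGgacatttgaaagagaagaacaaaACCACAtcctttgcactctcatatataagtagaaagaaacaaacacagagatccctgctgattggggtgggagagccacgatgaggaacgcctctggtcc
Klrb1c (chr6:128788592-128788891, minus strand): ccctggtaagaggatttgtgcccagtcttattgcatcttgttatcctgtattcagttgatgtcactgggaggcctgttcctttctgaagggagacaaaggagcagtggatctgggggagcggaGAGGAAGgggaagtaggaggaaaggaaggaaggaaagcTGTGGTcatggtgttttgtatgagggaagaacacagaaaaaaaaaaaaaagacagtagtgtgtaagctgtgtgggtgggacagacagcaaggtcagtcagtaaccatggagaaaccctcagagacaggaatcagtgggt
Gzmb (chr14:56262285-56262584, minus strand): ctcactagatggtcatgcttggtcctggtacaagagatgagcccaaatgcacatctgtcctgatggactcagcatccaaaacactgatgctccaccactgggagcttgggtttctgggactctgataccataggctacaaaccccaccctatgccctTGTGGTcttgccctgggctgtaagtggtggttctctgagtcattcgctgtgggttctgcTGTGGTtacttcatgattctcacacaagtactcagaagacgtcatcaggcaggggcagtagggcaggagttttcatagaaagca
The Runx letters stood in the promoters of 8 of these 8 genes, and in 16.8% of 32851 promoters of the table. Among the 20837 promoters with a GC share between 36% and 58.7%, the range of the members, they stood in 20.2%. The T-box letters stood in 1 member (Nkg7, starting at position -13 from the start site) and in 3.98% of all promoters. The Ets letters stood in 2 members (Klrb1c and Prf1) and in 13.6% of all promoters, and the E-box in 2 (Gzma and Prf1) and in 20.2%. Gzmb, which stayed near background, had 2 copies of the Runx letters (positions -93 and -34), and Nkg7 had 1 (position -83). None of the motifs overlapped another in the promoters shown, and a match is a description, not a binding site.

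Across the 10 genes, 3 were past the size in Pax5sz2 cells, all higher: Klrd1, Nkg7 and Gzma. Of all 20022 features tested, 5.17% were past the size in that comparison, 2.34% higher and 2.83% lower. At 10 ng/ml, 0 of the 6 tested members were past it, where 1.88% of all features were (0.609% higher, 1.27% lower). At 300 ng/ml Nkg7 alone was, and it was lower, where 3.68% of all features were (1.32% higher, 2.36% lower). At 1000 ng/ml as labelled Nkg7 alone was again, and it was higher, where 2.57% of all features were (1.93% higher, 0.634% lower). A tested member had to be detected in some RNA, and Klrd1 was detected on the Pax5sz2 arrays alone, so these 6 do not stand for all 10 and no median over them is given.

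**Figure D1:**
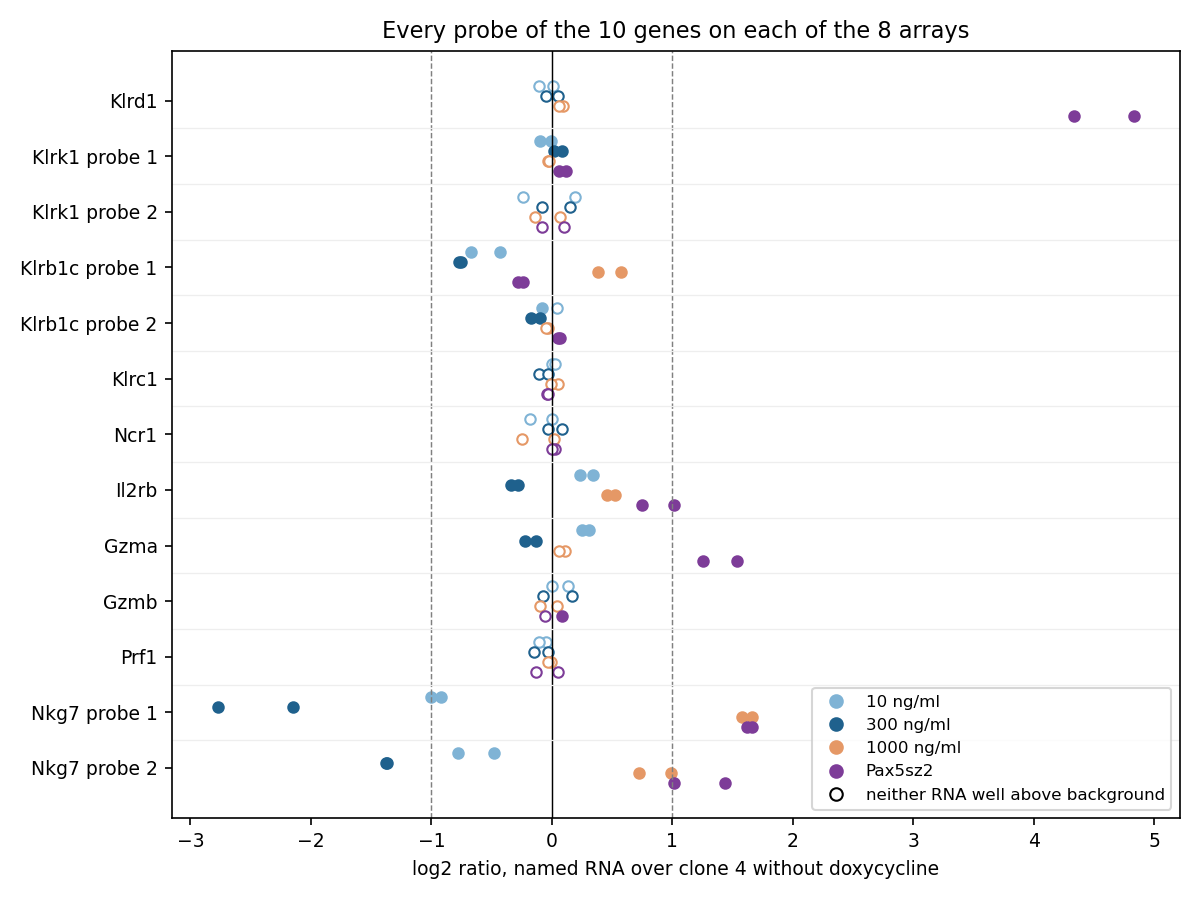
Log2 ratio of the named RNA over clone 4 without doxycycline (x axis) for each of the 13 probes (rows), with 1 point for each of the 8 arrays; dashed lines mark 2-fold and open circles mark arrays where neither RNA was well above background. Klrd1 stands at 4.33 and 4.83 in Pax5sz2 and near 0 elsewhere, and the brightest Nkg7 probe runs between -2.77 (300 ng/ml) and 1.66.

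Klrd1, the gene of CD94, was the member with the largest ratio. Its log2 ratio was 4.33 and 4.83 on the 2 Pax5sz2 arrays, a mean of 4.58 ± 0.355, or 24-fold higher, the 4th highest of 20021 features. The size changed with the processing: Feature Extraction's processed signals gave 6.90 (119-fold) and the authors' deposited ratios 6.84 (115-fold). Its normalized log2 level was 11.14 and 11.21 in Pax5sz2 RNA, against 6.81 and 6.38 in the control RNA of those arrays. At the 3 doses neither RNA was well above background, so no fold is given there. The levels of Klrd1 at the doses were 6.05 and 6.09 (10 ng/ml), 6.06 and 6.11 (300 ng/ml) and 6.19 and 6.04 (1000 ng/ml), against 5.97 to 6.16 in the control RNA of those 6 arrays. Pax5sz2 was the one RNA with a high level, and its values did not overlap those of any other. The control RNA was called well above background for Klrd1 on both Pax5sz2 arrays and on none of the other 6.

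Klrc1, the gene of NKG2A, the inhibitory partner of CD94, showed no such level. Its probe was not well above background in either RNA of any array, with levels of 6.04 and 5.93 in Pax5sz2 RNA, against 6.09 and 5.96 in the control RNA. Its mean log2 ratios lay between -0.07 and 0.02. Ncr1, the gene of the activating receptor NKp46, was likewise not well above background on any array, with mean log2 ratios between -0.12 and 0.03. Other partners of CD94 (Klrc2 and Klrc3) were on the array and were not tested for the same reason.

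Klrk1, the gene of NKG2D, was detected close to background, with ratios near 0. Its brighter probe was well above background in both RNAs on the 10 ng/ml, 300 ng/ml and Pax5sz2 arrays. Its level was 6.59 and 6.79 in Pax5sz2 RNA, against 6.53 and 6.67 in the control RNA. The mean log2 ratio was -0.06 ± 0.0645 with 10 ng/ml, 0.05 ± 0.0399 with 300 ng/ml and 0.09 ± 0.046 in Pax5sz2. Neither RNA was well above background at 1000 ng/ml, and its second probe was not on any array. The adaptor gene Hcst, through which NKG2D signals, was detected in both RNAs of every array, with log2 ratios of -1.05 ± 0.0207 at 300 ng/ml and -1.05 ± 0.0487 in Pax5sz2, both past the size, and of -0.74 at 10 ng/ml and 0.59 at 1000 ng/ml as labelled.

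Klrb1c encodes NK1.1, the antigen used to mark NK cells in several mouse strains. At 10 ng/ml its level was 6.93 and 7.25, against 7.60 and 7.68 in the control RNA, a log2 ratio of -0.55 ± 0.168. At 300 ng/ml its level was 6.85 and 7.05, against 7.63 and 7.81 in the control RNA, a log2 ratio of -0.76 ± 0.0112. In both comparisons the control values lay above those of the doxycycline-treated RNA, without reaching 2-fold. Processed signals put the ratio at 300 ng/ml past 2-fold on both arrays (-1.38), as did the authors' deposited ratios (-1.33). In Pax5sz2 RNA its level was 7.31 and 7.42, against 7.58 and 7.66 in the control RNA (-0.26 ± 0.0288). With 1000 ng/ml as labelled its level was 7.50 and 7.46, at least 1.19-fold higher than in the control RNA (7.12 and 6.89), which was dim, and its log2 ratio was 1.52 with processed signals. The levels of Klrb1c at 10 and 300 ng/ml overlapped each other and lay below those of Pax5sz2. The nearest values were 7.25 and 7.31, while the control RNA ran from 7.58 to 7.81 on those arrays. The second Klrb1c probe lay close to background, at levels of 6.12 to 6.53, and its mean log2 ratios were between -0.14 and 0.06. At 10 ng/ml it was well above background in each RNA on 1 of 2 arrays, so it gives no check of the brighter probe.

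Il2rb, the chain through which IL-2 and IL-15 signal in NK cells, was highest in Pax5sz2. Its level there was 8.56 and 8.64, against 7.82 and 7.63 in the control RNA, a log2 ratio of 0.88 ± 0.189 that fell short of the size on 1 array (0.75) and passed it on the other (1.01). With Feature Extraction's processed signals its ratio was 1.34. At 10 ng/ml its level was 7.90 and 7.83, against 7.55 and 7.60 in the control RNA (0.29 ± 0.0785). The side changed with 300 ng/ml, with levels of 7.25 and 7.10, against 7.59 and 7.38 in the control RNA (-0.31 ± 0.043). With 1000 ng/ml as labelled its level was 7.36 and 6.75, and the control RNA (6.90 and 6.23) was not well above background, so no bound can be given. In the order of levels, Pax5sz2 came before 10 ng/ml and 10 ng/ml before 300 ng/ml without overlap. The place of 1000 ng/ml depends on its direction: as labelled it overlapped 300 ng/ml, and with the sign turned (6.90 and 6.23) it lay below.

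**Figure D2:**
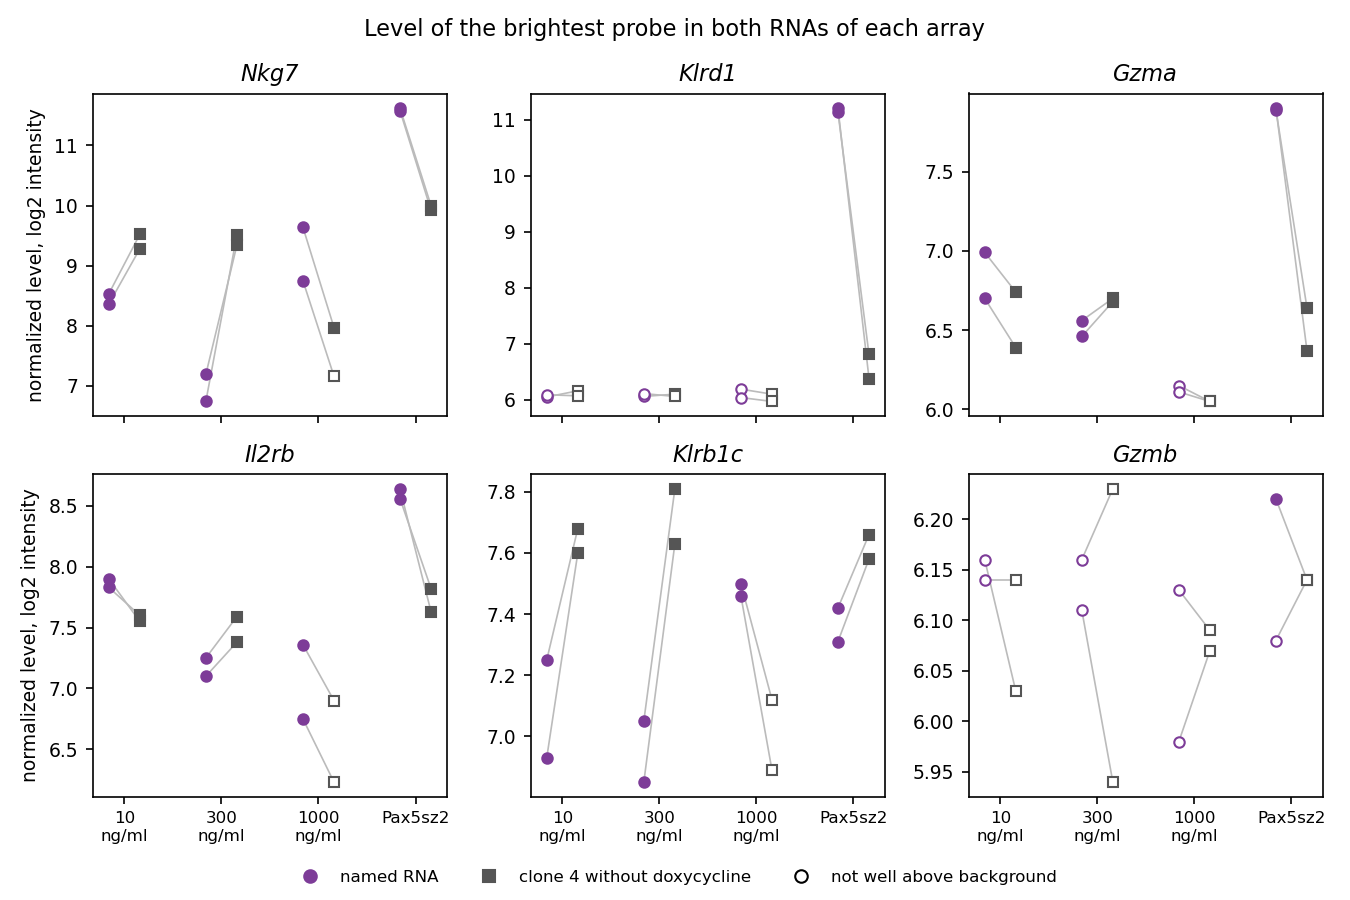
Normalized log2 intensity (y axis) of the brightest probe of 6 member genes in both RNAs of each array, joined by a line, for the 4 comparisons (x axis); purple circles are the named RNA, grey squares clone 4 without doxycycline, and open symbols were not well above background. Nkg7 stands at 6.74 and 7.19 at 300 ng/ml and at 11.62 and 11.58 in Pax5sz2, and Gzmb stays between 5.94 and 6.23; the y axes differ between panels.

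Among the effectors, Nkg7, which encodes a membrane protein of cytotoxic granules, had a log2 ratio of 0.96 or more in size in all 4 comparisons, as no other member did. At 10 ng/ml its brightest probe had levels of 8.36 and 8.53, against 9.28 and 9.52 in the control RNA, a log2 ratio of -0.96 ± 0.052 (1.95-fold lower), just short of the size. At 300 ng/ml its level was 6.74 and 7.19, against 9.51 and 9.34 in the control RNA, a log2 ratio of -2.46 ± 0.435 (5.51-fold lower), the 24th lowest of 19844 features. The 2 treated RNAs were therefore below the control RNA on every array, and the 300 ng/ml levels lay below the 10 ng/ml levels.

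In Pax5sz2 cells the Nkg7 level was 11.62 and 11.58, against 10.00 and 9.92 in the control RNA, a log2 ratio of 1.64 ± 0.0334 (3.12-fold higher). With 1000 ng/ml as labelled it was 9.64 and 8.75, against 7.97 and 7.16 in the control RNA, a log2 ratio of 1.62 ± 0.0551. There the control RNA was well above background on 1 of 2 arrays, so no fold is given, and processed signals gave a ratio of 2.79. The level of the RNA labelled as control was between 9.28 and 10.00 on the other 6 arrays, above both of its values on the 1000 ng/ml arrays, and the RNA labelled 1000 ng/ml overlapped that range. In the order of levels, Pax5sz2 stood above all others, and 10 ng/ml stood above 300 ng/ml without overlap. As labelled, 1000 ng/ml stood between Pax5sz2 and 10 ng/ml, and with the sign turned (7.97 and 7.16) it stood below 10 ng/ml and overlapped 300 ng/ml. The second Nkg7 probe had the same signs with smaller sizes: -0.63 ± 0.213, -1.38 ± 0.00707 and 0.85 ± 0.195 at the rising doses, and 1.23 ± 0.307 in Pax5sz2.

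Gzma, the gene of granzyme A, was higher in Pax5sz2. Its level there was 7.89 and 7.90, against 6.64 and 6.37 in the control RNA, a log2 ratio of 1.40 ± 0.20 (2.63-fold higher). With processed signals the ratio was 2.96 (7.79-fold) and with the authors' deposited ratios 2.90 (7.47-fold). At 10 ng/ml its level was 6.99 and 6.70, against 6.74 and 6.39 in the control RNA (0.28 ± 0.0444), and the groups overlapped across the 2 arrays. With 300 ng/ml its level was 6.46 and 6.56, against 6.68 and 6.70 in the control RNA (-0.18 ± 0.0629). Neither RNA was well above background at 1000 ng/ml. In the order of levels, Pax5sz2 was highest without overlap. The 10 ng/ml levels lay above those at 300 ng/ml, but the control RNA itself ran from 6.37 to 6.74 on the 10 ng/ml, 300 ng/ml and Pax5sz2 arrays. That order of the doses is thus not set apart from the spread between arrays.

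Gzmb and Prf1, the genes of granzyme B and perforin, stayed at background. Gzmb was well above background in Pax5sz2 RNA on 1 array (level 6.22, with 6.08 on the other, against 6.14 and 6.14 in the control RNA) and nowhere else. Prf1 was well above background in no RNA, with levels of 5.97 and 6.06 in Pax5sz2, against 6.10 and 6.01 in the control RNA. Its mean log2 ratios lay between -0.09 and -0.02. So of the 4 effectors, Nkg7 and Gzma were measurable, and Gzmb and Prf1 were not detectable at this signal over background.

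Across the 3 doses, the mean doxycycline effect was fitted with limma over all features, each dose as 1 sample. At an adjusted p (Benjamini-Hochberg) under 0.05 it called 0 of 20022 features (0%; smallest adjusted p = 0.703). Before adjustment 1186 features were under 0.05, with 0 of the 6 members among them. Nkg7 had a mean log2 effect of -0.60 (SE 0.917, limma adjusted p = 0.859), below the control RNA at 2 of 3 doses. With the 1000 ng/ml sign turned, 0 features passed (smallest adjusted p = 0.121), and Nkg7 (-1.68, SE 0.324, adjusted p = 0.125) and Klrb1c (-0.60, SE 0.0827, adjusted p = 0.121) lay below the control RNA at 3 of 3 doses. With 10 and 300 ng/ml alone, the doses scanned later, limma called 2825 features (14.1%; 5.54% higher, 8.57% lower). The smallest limma adjusted p there was 0.0376, so all these features lay close under the cutoff. Klrb1c was the 1 member among them, at -0.66 (SE 0.0856, adjusted p = 0.0444), with its second probe close to background, while Nkg7 was at -1.71 (SE 0.439, adjusted p = 0.097). That fit rests on 2 doses, and the spread of the control RNA is not in it.

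The other NK pathway genes were taken from 6 lists of textbook genes, chosen with earlier results of these data known and described by counts. Their counts stand beside the shares of all features given above, and beside medians over all features of 0.01, 0.00, 0.00 and 0.03 at 10, 300 and 1000 ng/ml and in Pax5sz2. Among the other NK receptors, 12 of 29 were tested, with 2 lower at 10 ng/ml (1.27% of all features) and 3 lower at 300 ng/ml (2.36% of all), none higher. At 1000 ng/ml as labelled 3 were higher and 1 lower, and in Pax5sz2 2 were higher and 1 lower. Cd7, a receptor of T and NK cells, shared the side of Nkg7 in each comparison: its log2 ratio was -1.57 ± 0.243 with 10 ng/ml, -1.86 ± 0.444 with 300 ng/ml and 1.22 ± 0.14 in Pax5sz2, and it was at least 1.82-fold higher at 1000 ng/ml as labelled, where the control RNA was dim. Cd96, an adhesion receptor of T and NK cells, was higher in Pax5sz2 (1.11 ± 0.128). Fcgr3, the IgG receptor CD16, was on the other side of Klrd1 and Nkg7 in Pax5sz2 (-4.08 ± 0.15, and -2.21 for its other probe). At the doses Fcgr3 was on the side of Nkg7: -0.94 at 10, -2.70 at 300 and 3.77 at 1000 ng/ml as labelled. Its other probe had -0.41, -0.72 and 0.64. Ly49 receptor genes (Klra3, Klra5, Klra6), which were close to background, had mean log2 ratios between -0.04 and 0.12 in every comparison.

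The adaptor and proximal signalling list was lower at 300 ng/ml in 6 of 12 genes (median -1.03), where 2.36% of all features were, and higher at 1000 ng/ml as labelled in 5 of 12 (median 0.85), where 1.93% were. Tyrobp, the DAP12 adaptor of activating NK receptors, was at -3.39 ± 0.00912 at 300 ng/ml, and at 0.10 ± 0.0939 in Pax5sz2, where Klrd1 and Nkg7 were higher. Fcer1g, the adaptor of CD16 and NKp46, was at -3.40 ± 0.177 at 300 ng/ml and at -1.09 ± 0.0436 in Pax5sz2. Sh2d1b1, which encodes the SLAM-family adaptor EAT-2, was at -2.20 ± 0.0794 at 300 ng/ml. Cd247 was at -1.34 ± 0.403 at that dose, with -0.6 and -0.49 for its other probes. Zap70, a kinase of the CD3 zeta pathway, was at -1.08 ± 0.0529 there. In Pax5sz2, 2 of the 12 were lower (Hcst and Fcer1g) and 0 higher (median -0.04).

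The list of other granule proteins and effectors had 21 tested genes with no common direction: 1 higher at 10 ng/ml, 3 higher and 2 lower at 300 ng/ml, 2 higher at 1000 ng/ml as labelled, and 1 higher and 1 lower in Pax5sz2, where 2.34% of all features were higher and 2.83% lower. With 300 ng/ml the granule protease gene Ctsw was at -1.35 ± 0.0696 and Gzme at -1.32 ± 0.0617. The chemokine genes Ccl5 (1.95 ± 0.0756) and Ccl4 (1.16 ± 0.034) were higher there. Rab27a, a GTPase of granule release, was at 2.33 ± 0.0562 in Pax5sz2 with its brightest probe and at 0.38 with the other, so its probes disagree. Stxbp2, needed for granule fusion, was at -1.12 ± 0.069 in Pax5sz2, and at 1000 ng/ml as labelled the granule proteoglycan gene Srgn was at 1.52 ± 0.0739.

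Among 15 genes of the IL-2, IL-15, IL-12 and IL-18 pathway, 1 was lower at 10 ng/ml, 3 were lower at 300 ng/ml (2.36% of all features), 4 were higher at 1000 ng/ml as labelled (1.93% of all), and 1 was lower in Pax5sz2. Il18r1, a chain of the IL-18 receptor, had log2 ratios of -1.74 ± 0.0941 with 10 ng/ml and -3.52 ± 0.197 with 300 ng/ml, was at least 23.3-fold higher at 1000 ng/ml as labelled, and was at 0.02 in Pax5sz2. The IL-12 receptor gene Il12rb1 was at -1.59 ± 0.151 at 300 ng/ml and -1.39 ± 0.412 in Pax5sz2. Il2rg, the common gamma chain that pairs with Il2rb, was at -0.60 ± 0.092 in Pax5sz2, where Il2rb itself was at 0.88. Of 10 transcription factor genes, 0 were past the size at 10 ng/ml, 1 was lower at 300 ng/ml (Id2, -1.96 ± 0.972), 2 were higher at 1000 ng/ml as labelled (Nfil3, 2.26 ± 0.00429, and Id2, 1.72 ± 0.149), and 1 was lower in Pax5sz2 (Nfil3, -1.55 ± 0.141). Tbx21, the T-box factor T-bet of NK and Th1 cells, had mean log2 ratios between -0.04 and 0.08. Of 9 genes of receptor ligands, 2 were past the size, both in Pax5sz2 and both higher (2.34% of all features were): the NKG2D ligand gene Raet1e (1.34 ± 0.284) and Clec2d (1.84 ± 0.704), the ligand gene of an inhibitory NKR-P1 receptor.

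**Figure D3:**
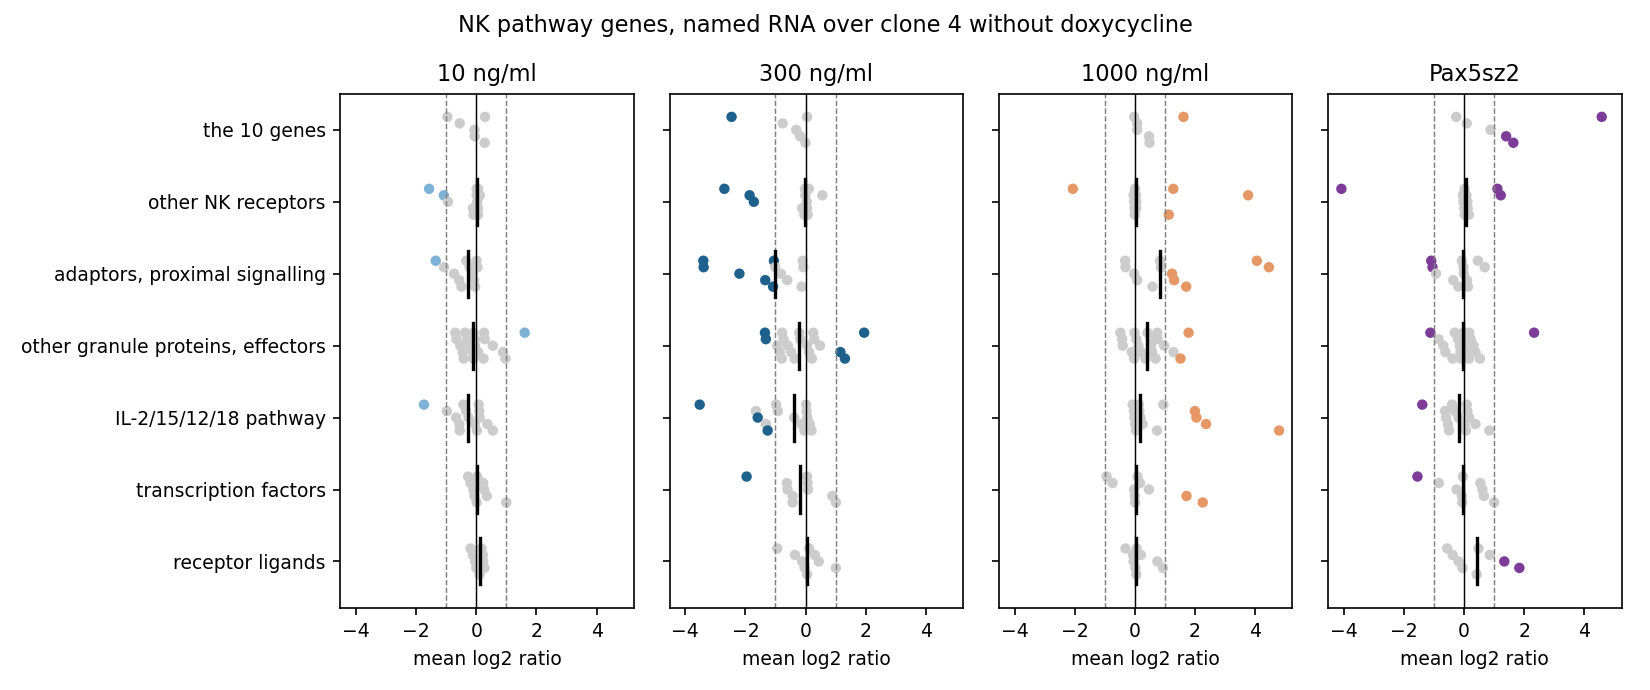
Mean log2 ratio of the named RNA over clone 4 without doxycycline (x axis) for each tested gene of the 10 members and of 6 NK pathway lists (rows) in the 4 comparisons (panels); coloured points were past 2-fold on both arrays, dashed lines mark 2-fold and black bars the median of each of the 6 lists. The adaptor list has its median at -1.03 at 300 ng/ml and at -0.04 in Pax5sz2.

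The NK gene complex was read by position. In a window reaching 500 kb beyond the member probes on chromosome 6 (mm8), 28 features were tested. Of these, 10.7% (3 of 28) were past the size at 10 ng/ml, where 1.88% of all features were, 10.7% (3 of 28) at 300 ng/ml (3.68% of all), 7.14% (2 of 28) at 1000 ng/ml (2.57% of all) and 7.14% (2 of 28) in Pax5sz2 (5.17% of all). In Pax5sz2 those 2 were Klrd1 and Clec2d. The window was drawn around the member probes, and Klrd1 was tested only through its signal on the Pax5sz2 arrays. Its count there was set by that choice, so the share in Pax5sz2 is not a result about the window. The features beside Klrd1 were near 0 there: Klre1 on one side at 0.16 and Klrk1, whose probe lies 14.4 kb away, at 0.09. Both were close to background, which limits these ratios. Klre1 was well above background on 1 of 2 arrays in Pax5sz2 RNA and on 0 of 2 in the control RNA. With 300 ng/ml Klrb1f, an NKR-P1 family gene near Klrb1c, was at -1.72 ± 0.0396 and Tmem52b at -1.30. The third feature past the size there, and the one with the largest ratio (-2.35), bears only a clone name; it was also at -1.18 with 10 ng/ml and at 2.51 with 1000 ng/ml as labelled. Klrd1 was at 0.00 with neither RNA well above background. Klrb1f was also at -1.08 ± 0.0498 with 10 ng/ml, at least 1.80-fold higher at 1000 ng/ml as labelled, where the control RNA was dim, and at 0.11 in Pax5sz2. Its other probe had -0.33 with 10 ng/ml, -0.69 with 300 ng/ml and 0.05 in Pax5sz2.

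**Figure D4:**
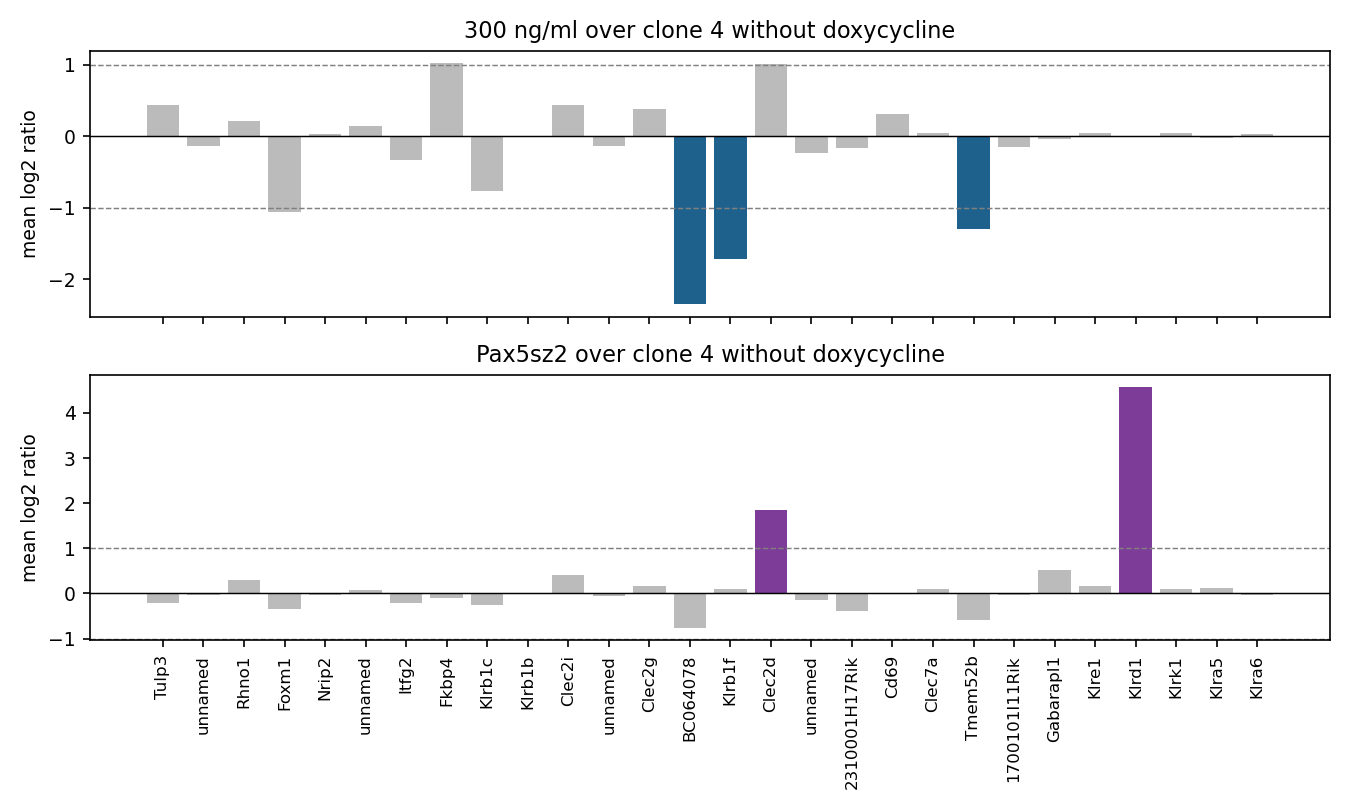
Mean log2 ratio over clone 4 without doxycycline (y axis) of the tested features around the member probes on chromosome 6, in order of position (x axis), at 300 ng/ml (top) and in Pax5sz2 (bottom); coloured bars were past 2-fold on both arrays and dashed lines mark 2-fold. Klrd1 stands at 4.58 in Pax5sz2 between Klre1 at 0.16 and Klrk1 at 0.09, both close to background. The coloured bars at 300 ng/ml lie elsewhere.

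Genes with the most similar ratios were sought over the 8 arrays among 14799 named features, by the smallest root mean square difference of the log2 ratios. For Klrd1 they were Stag3 (0.09), Casp1 (0.26), Vpreb2 (0.32), Rangrf (0.38) and Ms4a6b (0.39), with mean log2 ratios in Pax5sz2 between 4.05 and 4.92. Klrd1 was not well above background in either RNA on the 6 arrays of the doses, so this likeness rests on the Pax5sz2 ratio and on background elsewhere. The same holds for Gzma on the 1000 ng/ml arrays. For Gzma they were Ms4a6c (0.12), Fgl2 (0.15), Zbtb8a (0.16), Prr5l (0.16) and Cyp3a13 (0.18). For Nkg7 they were Klhl30 (0.39), Cd7 (0.52), Cox6a2 (0.53), Ankrd22 (0.59) and Ndrg2 (0.64), each with mean ratios below 0 at 10 and 300 ng/ml and above 0 in Pax5sz2. The arrays share the control RNA, so these likenesses are descriptions.

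Markers of other cells were summed on the linear scale of normalized intensity, over the tested genes of each list with a value on both arrays. A sum weighs its brightest gene most, so the gene with the largest part is named. In Pax5sz2, where Klrd1, Nkg7 and Gzma were higher, 9 of 10 T cell markers were tested and 1 was higher (Thy1, 1.68 ± 0.109, with 0.29 for its other probe). Their sum was 7240 to 9730 in Pax5sz2 RNA, against 6410 to 7840 in the control RNA. Without Lck it was 3910 to 4010, against 3830 to 4520. The 7 tested myeloid markers summed to 11000 to 12700 in Pax5sz2 RNA, against 29800 to 32100 in the control RNA, with 1 of 7 lower, which was Ctsg (cathepsin G). Without Ctsg they summed to 3170 to 3450, against 3310 to 3700, and the median ratio of the 7 was -0.08. The 12 B lineage markers summed to 317000 to 327000 in Pax5sz2 RNA, against 122000 to 123000 in the control RNA, with 3 higher and 4 lower. Vpreb1 set that direction: without it the sums were 90300 to 92400 in Pax5sz2 RNA, against 120000 to 123000, and the median ratio of the 12 was -0.39. The 10 stromal feeder markers summed to 36400 to 37700 in Pax5sz2 RNA, against 20100 to 20800 in the control RNA, with 3 higher. Without the chemokine gene Cxcl12 they were 16900 to 18200, against 14800 to 14800.

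At 300 ng/ml, where Nkg7 was lower, the myeloid markers summed to 5440 to 5740, against 26900 to 31400 in the control RNA, with 2 of 7 lower (Ctsg and Mpo, the myeloperoxidase gene). Without Ctsg the sums were 2240 to 2350, against 3080 to 3120, and the median ratio of the 7 was -0.57. The stromal markers, without Col1a2, which had an outlier spot there, summed to 34300 to 39900, against 12800 to 12800 in the control RNA, with 6 of 9 higher. Without Cxcl12 as well they were 17300 to 18700, against 7000 to 7340. The T cell markers summed to 3820 to 5170, against 5140 to 6530, with 0 of 9 past the size. Without Lck they were 1960 to 2170, against 2800 to 3590. The mast cell and basophil markers summed to 1380 to 1560, against 2570 to 2620, with 2 of 9 lower (Cpa3 and Mcpt8). Without Kit they were 884 to 954, against 1650 to 1670. At 1000 ng/ml as labelled, where Nkg7 was higher, the myeloid markers summed to 24700 to 31200, against 2390 to 3090 in the control RNA, with 2 of 7 higher (again Ctsg and Mpo). Without Ctsg they were 3700 to 4030, against 1850 to 2240, and the median ratio of the 7 was 0.58. The B lineage markers there summed to 105000 to 118000, against 223000 to 252000, with 0 of 12 higher and 4 lower. Without Cd79b they were 55300 to 67100, against 156000 to 177000, and the median ratio of the 12 was -0.49. The granulocyte markers S100a8, S100a9 and Ngp were not tested, being well above background in no RNA on both arrays of a comparison. The part of these markers in the Nkg7, Klrd1 and Gzma results was not tested.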

How the data were processed

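Total RNA was labelled with Agilent's Quick Amp kit for dual-colour arrays, per the labels' protocols, and 8 Agilent arrays of 43790 spots (41534 non-control) were analysed. The deposited files hold, per their headers, spot and background intensity values per channel, and a log10 ratio from Feature Extraction 10.5.1.1, a tool that the submitters' processing notes also give. The authors' deposited series matrix equals that log10 ratio, turned to named over control RNA, within 5e-06.

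Intensities were corrected by normexp (offset 50) and normalized by loess, control spots weighted 0, in limma 3.58.1 (R 4.3.3). Outlier spots (37 to 295 an array) were dropped. Log2 levels were scaled between arrays (Aquantile). Each gene was read by its brightest probe, with names updated through RefSeq accessions for 23374 probes, and 20022 features were tested. limma's moderated test used the mean of the 2 arrays of a dose, was adjusted over all features, and was tested on simulated data. With 3 doses it recovered 50%, 60%, 62% and 84% of planted log2 changes of 1.5, 2, 3 and 4. With 10 and 300 ng/ml alone it recovered 32%, 42%, 68% and 70%. False calls among 19568 unchanged features were 7 and 0. A feature that was not called may therefore still have changed.

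Members and gene lists were chosen with earlier results of these data known. Named genes are all members, genes out of the up to 4 largest past the size per list and comparison, and the 5 nearest features of each member past the size. Not every gene under that rule is printed. Klre1, Tmem52b, Klra3, Klra5, Klra6, Klrc2, Klrc3, Il2rg, Tbx21, Zap70 and the single markers of other cells were named after their values were seen. Groups came from the labels. Alternatives were median centring, processed signals, the series matrix, no filter on dim probes, all probes averaged, robust and trended eBayes, a random block, single arrays, doses left out and the 1000 ng/ml sign turned. A block on slides was not possible, since each slide holds 1 array.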

Additional observations from a re-analysis of the deposited data

Results flagged for a closer look

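For Nkg7, Il2rb, Gzma and Klrk1 both arrays of a pair of doses lay on opposite sides of the control RNA. No size was required for this, and Klrk1 was close to background. The share of all features that do the same was not counted. None of these differences was tested, and all comparisons share control RNA of the same label. Nkg7 differed by 2.58 on the log2 scale between 1000 and 10 ng/ml and by 4.08 between 1000 and 300 ng/ml, as labelled. Il2rb differed by -0.60 between 300 and 10 ng/ml. Gzma differed by -0.46 between 300 and 10 ng/ml, and Klrk1 by 0.11. Klrb1c and Il2rb had dim control RNA at 1000 ng/ml, so no difference from that dose is given for them. With the sign of the 1000 ng/ml pair turned, Nkg7 lies on 1 side of the control RNA at all 3 doses.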

How the results depend on the processing

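With Feature Extraction's processed signals and with the series-matrix ratios, 1 member (Nkg7, lower) was past the size with 10 ng/ml, 2 (Nkg7 and Klrb1c, lower) with 300 ng/ml and 2 (higher: Nkg7, with Il2rb in the processed signals and Klrb1c in the series matrix) with 1000 ng/ml, and the cause was not tested. The share of all features past the size was counted with the loess-normalized ratios alone, so member counts under other scalings have no share beside them. With the 1000 ng/ml sign turned, the 1 member past the size at that dose was lower. In Pax5sz2, 3 or 4 members (Il2rb the fourth) were past the size in all settings. The test over the doses called 2825 features without the 1000 ng/ml comparison and 1 with arrays as samples and the comparison as a random block, and 0 in the 10 other settings run. The mean effect of Nkg7 was 0.33 without the 300 ng/ml comparison, on the other side. Over the settings, the limma adjusted p ran from 0.0444 to 1 for Klrb1c and from 0.097 to 1 for Nkg7. With single arrays (leaving out replicate 1 or 2), the counts ran from 3 to 4 in Pax5sz2, 0 to 0 at 10 ng/ml, 1 to 1 at 300 and at 1000 ng/ml, and 0 to 0 features in the test. Under the other scalings and with probes averaged, 30 of 96 member ratios moved by less than 1 SD of the 2 arrays and 66 by 1 SD or more, 11 of these by over 1.5 times. None past the size changed sign. Among the others 5 changed sign or came to 0, all of Klrd1 or Gzma with neither RNA well above background. Median centring moved the median of all features in Pax5sz2 to 0.15. No paired analysis was possible because replicate numbers only name the 2 arrays of 1 RNA pair. Signal over background limits Klrc1, Ncr1, Gzmb, Prf1 and the doses of Klrd1.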
